A study of Homo sapiens with 12 samples.

Results

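The 10 HES and HEY genes described here (HES1 to HES7, HEY1, HEY2 and HEYL) were taken by symbol from a deposited table of 58219 genes, and all 10 were present. HES and HEY proteins are basic helix-loop-helix (bHLH) transcription factors with an Orange domain. In the classical NOTCH pathway a ligand on one cell binds a NOTCH receptor on its neighbour, gamma-secretase frees the receptor's intracellular part, and this joins the DNA-binding protein RBPJ and switches on HES and HEY genes. The HES and HEY proteins then recruit Groucho (TLE) corepressors and silence proneural genes, which keeps neural progenitors dividing. Not every member works this way: HES6 opposes HES1 in the mouse, and in the mouse Hes7 is best known from the segmentation clock of the presomitic mesoderm. In mouse neural tissue Hes1, Hes3 and Hes5 act together to hold progenitors back from differentiation, while HES4 has no counterpart in the mouse genome.

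Poly(A) RNA had been sequenced from H9, an established human embryonic stem cell line, as undifferentiated cells (day 0) and as neural progenitors made from them (days 4 and 8). Each day had 2 libraries of SOX21-/- genotype, S13 and S23, and 2 of wild type, WT1 and WT2, which gave 12 libraries in 6 groups. SOX21 encodes a SOX-family transcription factor of neural progenitors. Nothing used here states how the mutation was made, whether S13 and S23 are separate clones, or whether WT1 and WT2 are separate cultures. The p-values therefore measure the spread between these libraries, which may be technical.

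Levels are in TPM, a transcript abundance per gene computed by the authors that allows for transcript length, so that different genes can be compared. Because TPM sum to a fixed total, the read depth behind a value is unknown. In bulk RNA, fewer cells of a type and less RNA per cell cannot be told apart. Differences are on the log2(TPM + 1) scale with their standard error (SE), a scale that makes changes of genes near 0 look smaller than they are. They were tested with limma in a fit of 24248 genes, those with at least 1 TPM in at least 2 libraries, and a gene is said to have risen or fallen where its Benjamini-Hochberg adjusted p over all these genes was under 0.05. HES2 did not reach that level, which left 9 of the 10 members tested.

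SOX21 mRNA did not distinguish the libraries labelled SOX21-/-. Its level was 253 and 69.9 TPM in the day 8 SOX21-/- libraries, against 129 and 100.04 TPM in wild type, and its log2 difference was not called at day 0 (0.23, limma adjusted p = 1), day 4 (−0.09, adjusted p = 1) or day 8 (0.23, adjusted p = 0.898; SE 0.47 at each day). As nothing used here states how the mutation was made, the mRNA level can neither bear the label out nor speak against it. Every genotype direction below rests on the label. The day 0 libraries stood apart in makeup. Nuclear protein-coding genes took 55.9% to 56.4% of TPM at day 0 and 83.5% to 87.1% later, and the median tested gene moved by 0.91 in wild type and 0.72 in SOX21-/- between days 0 and 4 on the log2 scale. The pluripotency markers (POU5F1, NANOG, ZFP42, DPPA4, TDGF1 and PRDM14) summed to 2350 to 2399 TPM in SOX21-/- and 2485 to 2535 TPM in wild type at day 0, and to at most 178 TPM in any later library. The neural progenitor markers (SOX1, PAX6, SOX2, NES, FABP7 and MSI1) summed to 104 to 106 TPM at day 0 and to at least 848 TPM in each later library.

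The sequences just upstream of the genes are shown first for the motif of RBPJ, the DNA-binding partner of NOTCH. An exact match of the letters searched for was found beside HES5, HES4 and HES1 and not beside HES3. RefSeq promoter windows on GRCh38.p14, from 250 bases before to 50 bases after the start of the gene, were available for 9 of the 10 members, HEY1 being the exception. HES3 is drawn from chr1:6243929-6244228 (plus strand), HES5 from chr1:2530214-2530513 (minus strand), HES4 from chr1:1000048-1000347 (minus strand) and HES1 from chr3:194135898-194136197 (plus strand). Each is written 5′ to 3′ on its own gene's strand. Capitals mark the letters GTGGGAA, the form of the RBPJ motif searched for, or their reverse complement TTCCCAC.
HES3: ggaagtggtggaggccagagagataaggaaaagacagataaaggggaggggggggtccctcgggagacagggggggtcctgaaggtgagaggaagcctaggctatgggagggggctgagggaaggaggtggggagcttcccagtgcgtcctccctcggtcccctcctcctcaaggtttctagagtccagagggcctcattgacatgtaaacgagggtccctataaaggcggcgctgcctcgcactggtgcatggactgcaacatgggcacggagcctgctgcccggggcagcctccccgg
HES5: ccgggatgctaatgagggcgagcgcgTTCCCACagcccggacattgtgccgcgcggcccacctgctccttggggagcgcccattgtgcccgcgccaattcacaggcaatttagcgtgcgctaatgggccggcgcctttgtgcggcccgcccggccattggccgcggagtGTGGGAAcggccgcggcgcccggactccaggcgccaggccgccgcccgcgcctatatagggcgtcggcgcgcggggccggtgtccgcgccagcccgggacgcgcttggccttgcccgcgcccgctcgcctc
HES4: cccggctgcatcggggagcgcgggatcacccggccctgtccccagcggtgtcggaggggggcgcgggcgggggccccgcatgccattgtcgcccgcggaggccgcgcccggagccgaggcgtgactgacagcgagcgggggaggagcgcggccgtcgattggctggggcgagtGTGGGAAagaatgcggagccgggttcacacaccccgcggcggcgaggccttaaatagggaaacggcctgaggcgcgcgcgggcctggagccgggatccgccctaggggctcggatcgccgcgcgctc
HES1: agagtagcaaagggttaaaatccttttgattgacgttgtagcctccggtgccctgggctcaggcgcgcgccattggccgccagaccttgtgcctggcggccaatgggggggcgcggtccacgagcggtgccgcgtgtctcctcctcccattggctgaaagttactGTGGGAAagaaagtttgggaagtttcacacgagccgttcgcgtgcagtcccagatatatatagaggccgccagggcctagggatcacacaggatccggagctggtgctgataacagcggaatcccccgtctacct
The motif was found in 5 of the 9 windows, with 2 matches each in HES5 and HEY2 and 1 each in HES1, HES4 and HEYL, and in 6.25% of all 35116 promoter windows of that length. It was not found in the windows of HES3, HES2, HES6 or HES7. Only exact matches were searched, and the HES3 window holds ttcccag, which differs from TTCCCAC in its last letter. A SOX core motif, ACAAT on either strand, occurred in HES5 (2 matches) and HES4 (1 match) and in 27.4% of all windows. An E-box variant bound by HES proteins, CACGNG on either strand, occurred in HES1 (4 matches) and HES7 (1 match) and in 30.5% of all windows. The matches of the different motifs did not overlap. These are matches of letters, not measured binding.

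HES3 was the member in which the genotypes parted most widely. It lies on chromosome 1 at 6244192 to 6245578 (GRCh38, plus strand, ENSG00000173673.7). SOX21-/- stem cells had 15.03 and 12.01 TPM at day 0, against 14.7 and 11.03 TPM in wild type, so the groups overlapped. The day 4 levels were 94.96 and 151 TPM in SOX21-/- and 78.8 and 88.0 TPM in wild type, with both SOX21-/- libraries above both wild-type ones. By day 8 SOX21-/- still had 44.4 and 73.6 TPM, while wild type had 1.22 and 1.09 TPM, the lowest HES3 values of the 12 libraries. Between days 0 and 4 HES3 rose in both genotypes, by 3.06 (SE 0.28, limma adjusted p = 2.23e-05) in SOX21-/- and by 2.61 (SE 0.28, adjusted p = 5.05e-05) in wild type. With median-of-ratios scaling, which brings the median gene back to near 0, these rises were 1.89 and 1.24. Between days 4 and 8 HES3 fell in both genotypes, in SOX21-/- (−1.05, SE 0.28, adjusted p = 0.0274) and further in wild type (−5.29, SE 0.28, adjusted p = 8.87e-05). The smaller fall in SOX21-/- lost its call without the S23 library of day 4 (−0.72, adjusted p = 0.140), without the S13 library of day 8 (−0.69, adjusted p = 0.141) and with no filter on low values (adjusted p = 0.0504).

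The genotype difference of HES3 was 0.52 at day 4 (SE 0.28, 95% interval −0.13 to 1.16, limma adjusted p = 0.404) and 4.76 at day 8 (SE 0.28, interval 4.11 to 5.40, adjusted p = 2.10e-04), a 27.1-fold difference on the log2(TPM + 1) scale. The change of the genotype difference from day 4 to day 8 was itself called (4.24, SE 0.40, adjusted p = 0.00638). The day 8 difference was called in each of the 21 alternative settings run for it (4.40 to 5.52).

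**Figure D1:**
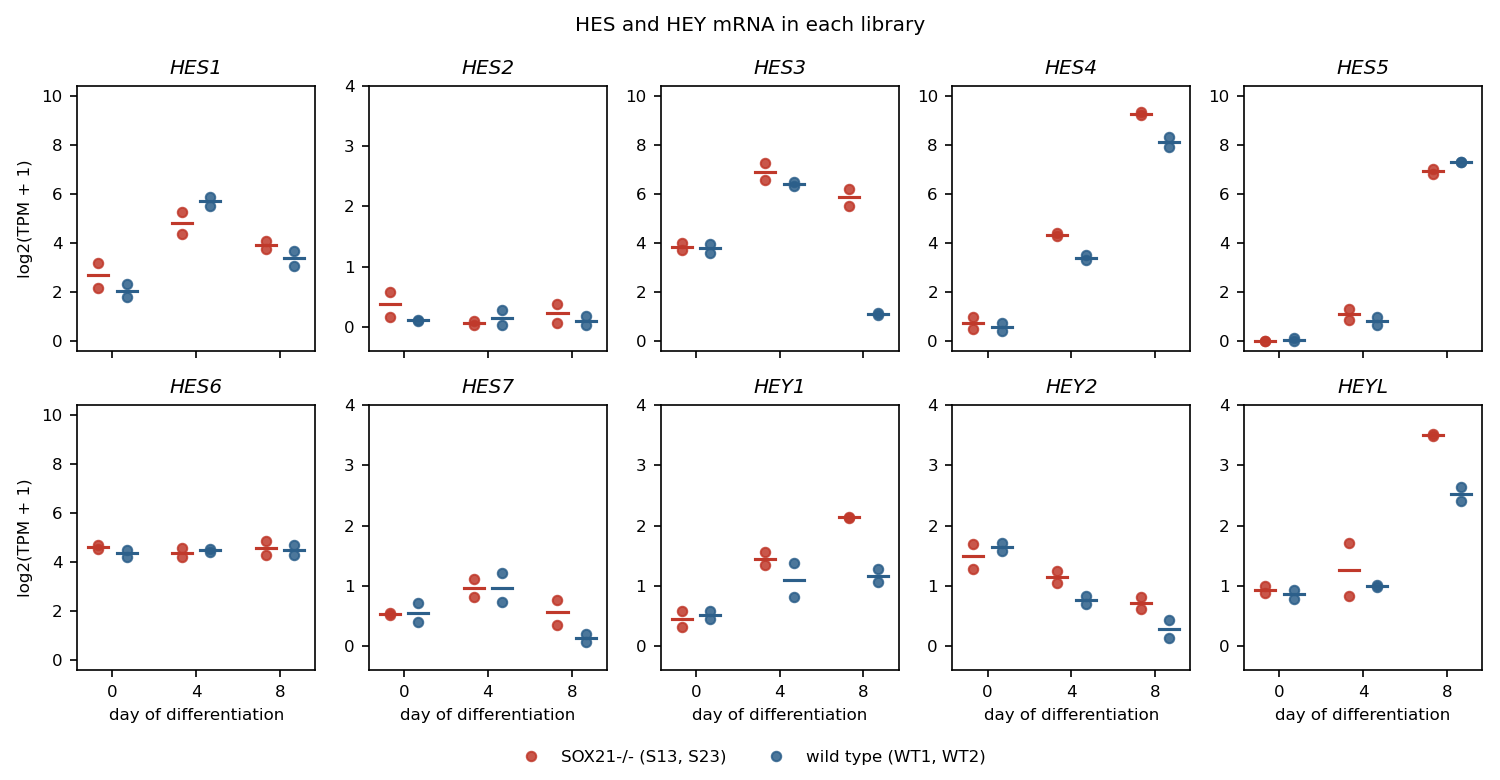
Level of each HES and HEY gene, as log2(TPM + 1) (y axis), against the day of differentiation (x axis), with 1 point per library and a bar at the group mean of 2 libraries, SOX21-/- in red and wild type in blue. The y axis runs further for HES1, HES3, HES4, HES5 and HES6 than for the other 5 genes; at day 8 the HES3 points of SOX21-/- lie far above those of wild type, and the HES5 points do not.

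HES5, the member most tightly tied to NOTCH activity in the neural tube, rose between days 4 and 8, the step at which HES3 fell. It lies on chromosome 1 at 2528745 to 2530245 (minus strand, ENSG00000197921.5). It was listed at 0 in both SOX21-/- libraries of day 0, and at 0.0856 and 0 TPM in wild type. SOX21-/- had 0.838 and 1.51 TPM at day 4, against 0.574 and 1.002 TPM in wild type, with overlapping groups. By day 8 HES5 had reached 112 and 128 TPM in SOX21-/- and 156 and 157 TPM in wild type. HES5 rose between days 4 and 8 by 5.81 in SOX21-/- (SE 0.19, limma adjusted p = 5.61e-06) and by 6.47 in wild type (SE 0.19, adjusted p = 4.24e-06). The earlier step from day 0 to day 4 also passed in both genotypes (adjusted p = 0.00102 in SOX21-/- and 0.00681 in wild type), but at levels near 0, where the size depends on the pseudocount: the wild-type value was 0.77 with a pseudocount of 1 and 2.66 with 0.1, and with quantile normalization it lost its call (0.43, adjusted p = 0.120). Against day 0 in SOX21-/-, listed at 0, no fold is given.

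Both SOX21-/- libraries had less HES5 than both wild-type libraries at day 8, but the difference was not called (−0.38, SE 0.19, 95% interval −0.82 to 0.06, limma adjusted p = 0.384). Nor was it at day 4 (0.27, SE 0.19, adjusted p = 0.524), and its change from day 4 to day 8 was −0.66 (SE 0.27, adjusted p = 0.278). A lincRNA of the opposite strand, RP3-395M20.12, shares 182 bases with HES5. It stood at 86.8 and 116 TPM in SOX21-/- and 124 and 115 TPM in wild type at day 8. The submitters' notes do not state whether strand was used in the quantification, so reads in the shared stretch cannot be assigned to one gene or the other.

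The contrast of the 2 genes can be put as log2((HES3 TPM + 1)/(HES5 TPM + 1)) in each library. At day 0 it was 3.85 ± 0.21 in SOX21-/- and 3.72 ± 0.19 in wild type (SD, n = 2 each), and at day 4 it was 5.81 ± 0.15 in SOX21-/- and 5.57 ± 0.13 in wild type. At day 8 HES5 exceeded HES3 in each of the 4 libraries, with −1.32 in S13 and −0.79 in S23, against −6.15 in WT1 and −6.24 in WT2. Wild type thus passed from mostly HES3 to almost wholly HES5 between days 4 and 8, whereas the SOX21-/- libraries held both.

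**Figure D2:**
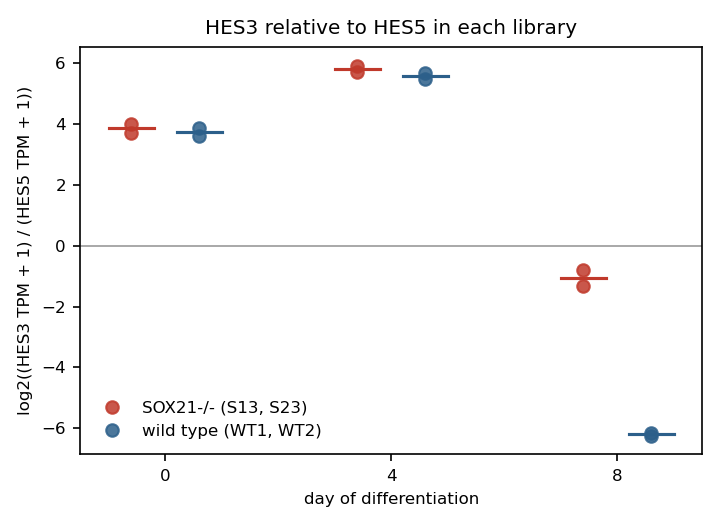
HES3 relative to HES5, as log2((HES3 TPM + 1)/(HES5 TPM + 1)) (y axis), against the day of differentiation (x axis), with 1 point per library and a bar at the group mean, SOX21-/- in red and wild type in blue. Points above 0 have more HES3 and points below 0 more HES5; the genotypes lie close together at days 0 and 4, and at day 8 the means are −1.05 in SOX21-/- and −6.19 in wild type.

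HES4 was the most abundant member at day 8 in both genotypes. It lies on chromosome 1 at 998962 to 1000172 (minus strand, ENSG00000188290.10). SOX21-/- had 0.980 and 0.419 TPM at day 0 and wild type 0.650 and 0.328 TPM. At day 4 SOX21-/- had 18.5 and 20.1 TPM and wild type 8.76 and 10.5 TPM, and at day 8 SOX21-/- had 594 and 646 TPM and wild type 317 and 238 TPM. At both later days the 2 SOX21-/- libraries lay above the 2 wild-type libraries. HES4 rose at each step, by 3.60 and then 4.94 in SOX21-/- (SE 0.20 each, limma adjusted p = 1.52e-06 and 1.45e-05) and by 2.84 and then 4.70 in wild type (SE 0.20 each, adjusted p = 4.69e-06 and 3.22e-05).

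The genotype difference of HES4 was 0.94 at day 4 (SE 0.20, limma adjusted p = 0.0825; unadjusted p = 0.00156) and 1.17 at day 8 (SE 0.20, adjusted p = 0.0235), and it did not change detectably between those days (0.23, SE 0.29, adjusted p = 0.772). Over the 21 alternatives the day 8 value ran from 0.96 to 1.38. The call was lost under 6 of them: a pseudocount of 0.1 (adjusted p = 0.183), median-of-ratios scaling (0.0505), the day 8 libraries alone (0.0967), and without the day 8 libraries WT2 (0.158), S13 (0.0847) or S23 (0.137).

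HES1, whose protein and mRNA oscillate in mouse neural progenitors, peaked at day 4. It lies on chromosome 3 at 194136145 to 194138732 (plus strand, ENSG00000114315.3). Its levels were 8.08 and 3.49 TPM in SOX21-/- and 4.02 and 2.44 TPM in wild type at day 0, and 19.4 and 37.5 TPM in SOX21-/- and 44.6 and 57.9 TPM in wild type at day 4. At day 8 they were 15.9 and 12.5 TPM in SOX21-/- and 7.40 and 11.7 TPM in wild type. SOX21-/- libraries thus lay below wild type at day 4 and above it at day 8, with no overlap on either day. Neither difference was called (day 4 −0.89, SE 0.42, limma adjusted p = 0.336; day 8 0.55, SE 0.42, adjusted p = 0.597), nor was the turn between them (1.43, SE 0.59, adjusted p = 0.280; unadjusted p = 0.0408).

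HES1 rose from day 0 to day 4 by 2.13 in SOX21-/- (SE 0.42, limma adjusted p = 0.00211) and by 3.64 in wild type (SE 0.42, adjusted p = 7.54e-05). Under median-of-ratios scaling the SOX21-/- rise was 1.04 and not called (adjusted p = 0.0712), and the wild-type rise was 2.40. From day 4 to day 8 HES1 fell in wild type (−2.32, SE 0.42, adjusted p = 0.0113), a call lost without the day 4 library WT2 (adjusted p = 0.0722) or the day 8 library WT1 (adjusted p = 0.0743). In SOX21-/- the value for that step was −0.89 (SE 0.42, adjusted p = 0.161).

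The 3 HEY genes, known for roles downstream of NOTCH in vessels and heart, were at low levels. HEYL had 10.5 and 10.2 TPM in SOX21-/- and 5.26 and 4.33 TPM in wild type at day 8, and 0.724 to 2.26 TPM in the earlier libraries. A gene of the opposite strand, RP1-144F13.3, shares 488 bases with HEYL. It had 0 and 2.93 TPM in SOX21-/- and 2.84 and 1.45 TPM in wild type at day 8, and 0 in the earlier libraries. Strand use is not stated, so reads in the shared stretch cannot be assigned to one gene or the other. HEYL rose from day 4 to day 8 by 2.24 in SOX21-/- (SE 0.27, limma adjusted p = 0.00117) and by 1.53 in wild type (SE 0.27, adjusted p = 0.0111). The wild-type call was lost without WT1 or WT2 of day 4 (adjusted p = 0.0615 and 0.0568) or WT1 of day 8 (adjusted p = 0.0703). Its genotype difference at day 8 was 0.97 (SE 0.27, adjusted p = 0.115), and it passed without the S13 or the S23 library of day 4 (adjusted p = 0.0308 and 0.0319).

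HEY1 had 3.41 and 3.39 TPM in SOX21-/- and 1.10 and 1.42 TPM in wild type at day 8, a difference of 0.97 that was not called (SE 0.24, limma adjusted p = 0.0801). At day 4 it had 1.54 and 1.95 TPM in SOX21-/- and 1.61 and 0.750 TPM in wild type. HEY1 rose from day 0 to day 4 in SOX21-/- (1.002, SE 0.24, adjusted p = 0.00630), a call lost under median-of-ratios scaling (0.52, adjusted p = 0.111) and quantile normalization (0.53, adjusted p = 0.0927). In wild type the same step was 0.58 (SE 0.24, adjusted p = 0.0611), and it passed with a pseudocount of 0.1 (1.20, adjusted p = 0.0413) and without the day 4 library WT2 (0.87, adjusted p = 0.0190).

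HEY2 went the other way. Its levels were 2.24 and 1.43 TPM in SOX21-/- and 2.29 and 1.99 TPM in wild type at day 0, 1.38 and 1.06 TPM in SOX21-/- and 0.776 and 0.619 TPM in wild type at day 4, and 0.752 and 0.524 TPM in SOX21-/- and 0.10002 and 0.346 TPM in wild type at day 8. Both genotypes had their highest HEY2 mean at day 0 and their lowest at day 8. The fall from day 0 to day 4 passed in wild type (−0.89, SE 0.23, limma adjusted p = 0.00762), with −1.78 under median-of-ratios scaling. In SOX21-/- it was −0.34 (SE 0.23, adjusted p = 0.223), and it passed with median-of-ratios scaling (−1.15), quantile normalization (−0.88) and on nuclear protein-coding genes alone (−0.81).

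HES6 was the steadiest member in TPM, at 17.4 to 27.7 TPM in the 12 libraries. In SOX21-/- it had 22.4 and 24.8 TPM at day 0, 17.4 and 22.5 TPM at day 4 and 27.7 and 18.3 TPM at day 8, and in wild type 21.5 and 17.7, then 20.3 and 22.3, then 18.5 and 24.7 TPM on the same days. Its direction from day 0 to day 4 depended on the scaling: in SOX21-/- it was −0.24 (limma adjusted p = 0.385), and −1.42 and called with median-of-ratios scaling (adjusted p = 6.93e-04), −0.97 with quantile normalization (adjusted p = 0.00590) and −0.85 on nuclear protein-coding genes alone (adjusted p = 0.00524). In wild type it was 0.12 (adjusted p = 0.658), and −1.25 (adjusted p = 0.00136), −0.79 (adjusted p = 0.0151) and −0.49 (adjusted p = 0.0638) under those 3 settings. HES7 lay between 0.0467 and 1.32 TPM and reached 1 TPM in 2 libraries, both of day 4. Its step from day 4 to day 8 was −0.41 in SOX21-/- (adjusted p = 0.296) and −0.83 in wild type (adjusted p = 0.0741). With a pseudocount of 0.1 the wild-type step was −2.42 (adjusted p = 0.0418). HES7 entered the fit through day 4 libraries alone, which favoured a fall from day 4, so these values support nothing. HES2 had at most 0.498 TPM, in S23 of day 0. Presomitic mesoderm markers (TBXT, TBX6, MSGN1, MESP1 and MESP2) summed to at most 2.60 TPM in any library.

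Counted over the 9 tested members, the genotype comparison called 0 at day 0 by limma, where 0.384% of all tested genes were called (0.161% higher and 0.223% lower in SOX21-/-), and 0 at an unadjusted p under 0.05, where 5.88% of all tested genes lay. At day 4 it called 0, where 0.775% were called (0.239% higher and 0.536% lower), and HES4 was the 1 member with an unadjusted p under 0.05, beside 16.9% of all tested genes. At day 8 it called 2 of 9, HES3 and HES4, both higher in SOX21-/-, where 2.79% of all tested genes were called (1.47% higher and 1.32% lower), and 4 members had an unadjusted p under 0.05, beside 16.3% of all tested genes.

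Members were also counted by the order of their libraries alone, whether or not they passed the test. With both SOX21-/- libraries above both wild-type libraries there was 1 tested member at day 0 (HES6), and 0 lay below, while 15.7% of all tested genes lay above and 14.0% below. At day 4 there were 3 above (HES3, HES4 and HEY2) and 1 below (HES1), while 11.1% of all tested genes lay above and 33.8% below. At day 8 there were 7 above (HES1, HES3, HES4, HES7, HEY1, HEY2 and HEYL) and 1 below (HES5), with HES6 overlapping. Of all tested genes 21.4% lay above and 21.7% below. HES7 and HEY2 were under 1 TPM in each library of day 8. The change of the genotype difference was called for 0 of 9 members from day 0 to day 4, where 0.408% of all tested genes were called (0.169% higher and 0.239% lower); HES1 and HES4 had an unadjusted p under 0.05, beside 12.01% of all tested genes. From day 4 to day 8 it was called for HES3 alone, where 1.11% were called (0.788% higher and 0.326% lower).

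**Figure D3:**
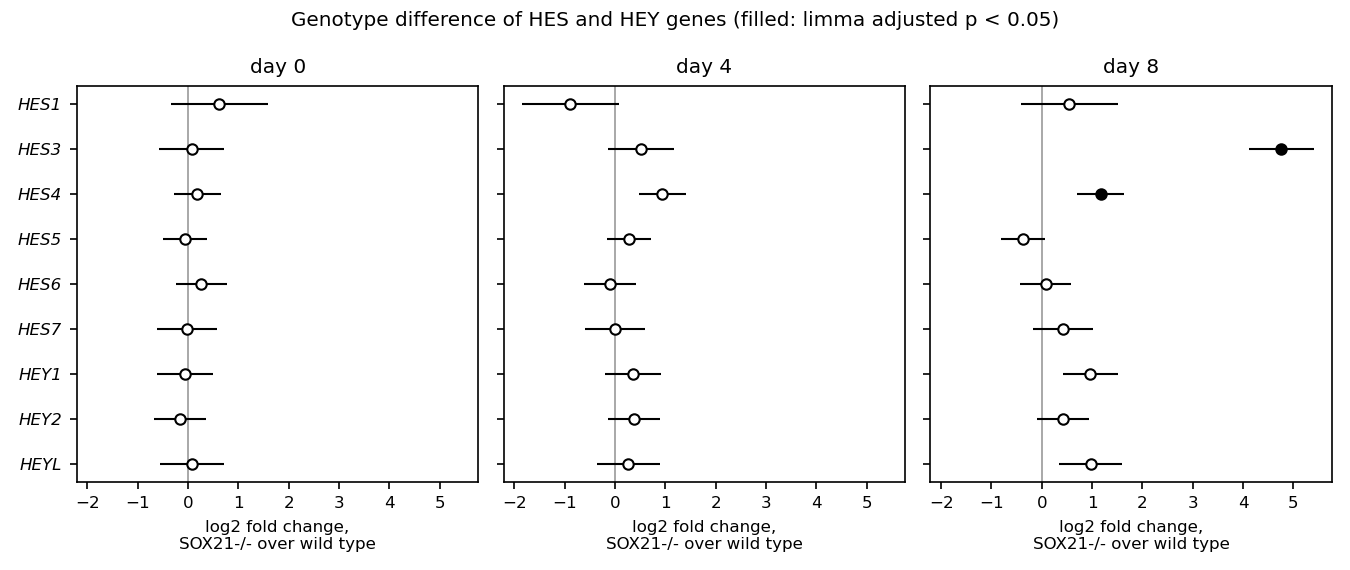
Genotype difference of the 9 tested HES and HEY genes, as log2 fold change of SOX21-/- over wild type (x axis), at days 0, 4 and 8 (panels), with points at the limma estimate from 2 libraries per group, bars for its 95% interval, and filled points where the adjusted p was under 0.05. The filled points are HES3 (4.76) and HES4 (1.17) at day 8.

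Over time more members changed, and so did more of all genes. From day 0 to day 4, 5 of 9 members were called in SOX21-/- (HES1, HES3, HES4, HES5 and HEY1, all higher), where 60.6% of all tested genes were called (48.1% higher and 12.5% lower). In wild type 5 of 9 were called (HES1, HES3, HES4 and HES5 higher, HEY2 lower), where 65.7% were (54.3% higher and 11.4% lower). Both shares of members lie near or under the share of all genes. From day 4 to day 8, 4 of 9 were called in SOX21-/- (HES4, HES5 and HEYL higher, HES3 lower), where 26.1% of all tested genes were called (19.0% higher and 7.15% lower). In wild type 5 of 9 were called (HES4, HES5 and HEYL higher, HES3 and HES1 lower), where 12.6% were (7.62% higher and 4.99% lower). The wild-type count was 3 without the day 4 library WT2 or the day 8 library WT1.

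Because the 10 genes are on the same scale, their TPM can be summed and ranked. The sum was 47.5 ± 4.65 TPM in SOX21-/- and 40.2 ± 6.97 TPM in wild type at day 0, 197 ± 58.7 TPM in SOX21-/- and 170.3 ± 18.7 TPM in wild type at day 4, and 851 ± 59.7 TPM in SOX21-/- and 473 ± 48.2 TPM in wild type at day 8 (SD, n = 2 each). At day 0 the order was HES6, HES3, HES1 and HEY2 in both genotypes, with each of these apart from the next in its libraries. HES6 made up 49.7% of the summed TPM in SOX21-/- and 48.7% in wild type, and HES3 28.5% in SOX21-/- and 32.1% in wild type. The other members had a mean under 1 TPM in both genotypes there.

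At day 4 HES3 came first, with 62.3% of the sum in SOX21-/- and 49.0% in wild type. HES1 followed with 14.4% in SOX21-/- and 30.1% in wild type. In wild type HES1 (51.2 ± 9.39 TPM), HES6 (21.3 ± 1.35 TPM) and HES4 (9.61 ± 1.21 TPM) each stood apart from the next, while in SOX21-/- the libraries of HES1 (28.4 ± 12.8 TPM), HES6 (19.97 ± 3.63 TPM) and HES4 (19.3 ± 1.07 TPM) could not be ordered. At day 8 HES4 came first, with 72.8% in SOX21-/- and 58.7% in wild type, and HES5 second, with 14.1% in SOX21-/- and 33.1% in wild type. The third place was held by HES3 in SOX21-/- (6.93% of the sum) and by HES6 in wild type (4.57%), where HES3 was the seventh with 0.244%. The HES4 level was 5.30 and 5.05 times that of HES5 in S13 and S23 and 2.03 and 1.52 times in WT1 and WT2 at day 8.

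**Figure D4:**
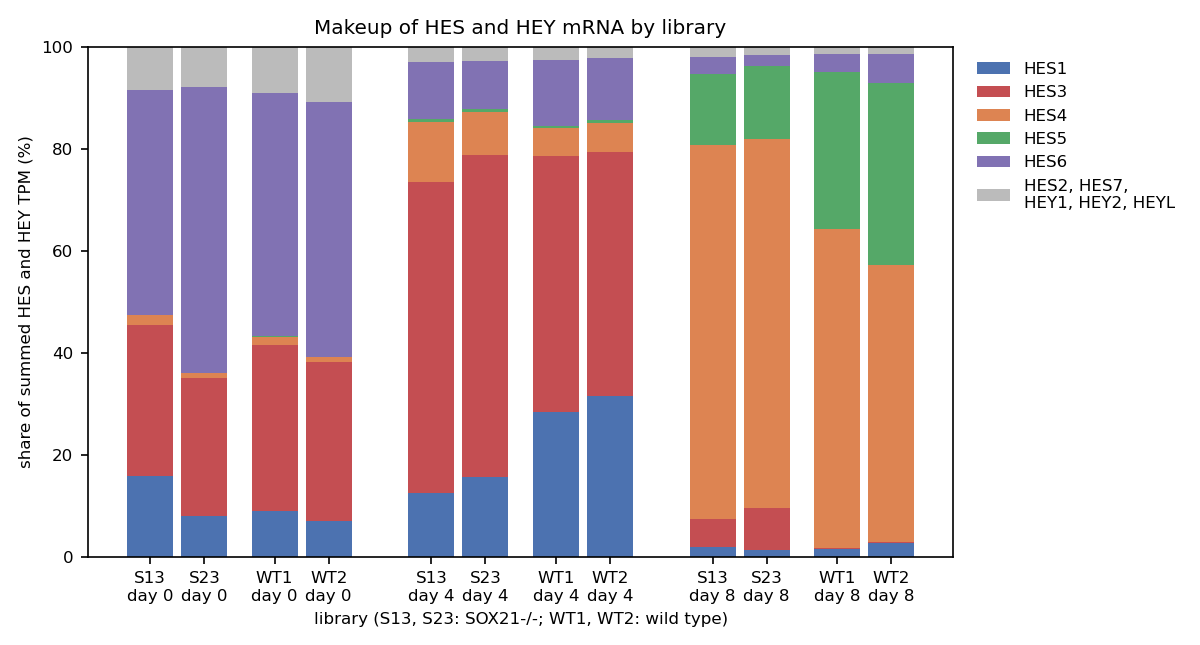
Share of each HES and HEY gene in the summed TPM of the 10 genes (y axis, percent) in each of the 12 libraries (x axis), with HES2, HES7, HEY1, HEY2 and HEYL joined in grey. HES6 and HES3 make up most of the bars at day 0, HES3 leads at day 4 and HES4 at day 8, where a HES3 band is visible in the SOX21-/- libraries S13 and S23 and not in WT1 and WT2.

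Across the 12 libraries, which share their genotype and day, the log2 levels of HES4, HES5 and HEYL ran together (Pearson r = 0.947 for HES4 and HES5, 0.934 for HES5 and HEYL, 0.924 for HES4 and HEYL). HES3 and HES5 had r = −0.36, and HES3 and HES7 0.834. Among 15917 other genes with a group mean of at least 5 TPM, the 5 whose pattern was most like HES3 were FRAT2 (r = 0.962), ITGA6 (0.945), ITPRIP (0.941), AUTS2 (0.938) and FGFR2 (0.930). At day 8 FRAT2, a binder of the kinase GSK3, averaged 38.9 TPM in SOX21-/- and 4.199 TPM in wild type, and ITGA6, the integrin alpha 6 subunit, 79.0 TPM in SOX21-/- and 19.6 TPM in wild type. FGFR2, a receptor for fibroblast growth factors, averaged 134 TPM in SOX21-/- and 9.73 TPM in wild type. The 5 most like HES5 were the overlapping RP3-395M20.12 (r = 0.998), WNT7B (0.996), TMEM54 (0.988), ITPRIPL2 (0.987) and PDXK (0.987), and WNT7B, a secreted WNT ligand, averaged 50.8 TPM in SOX21-/- and 42.8 TPM in wild type at day 8. These values describe likeness over 12 libraries in 6 groups and carry no test. The genes were chosen for their likeness to HES3 or HES5 in these same libraries. Their day 8 levels by genotype therefore follow from that choice and support nothing.

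The neighbours of HES3 on chromosome 1 were also read. GPR153, an orphan receptor gene 1768 bases away, had 34.2 and 37.6 TPM in SOX21-/- and 19.0 and 20.8 TPM in wild type at day 8, and was higher in SOX21-/- (0.82, limma adjusted p = 0.0305), a call lost in 10 of 21 alternatives, 8 of them without 1 library, each library of day 8 among them. At day 4 its difference was −0.29 (adjusted p = 0.386). ICMT on the other side, 8220 bases away, had a day 8 difference of 0.28 (adjusted p = 0.289). Beside HES5, PANK4 (2117 bases away) and TNFRSF14 (25394 bases away) had day 8 differences of 0.22 and −0.29 (adjusted p = 0.534 and 0.763).

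The rest of the pathway was read from 8 lists with 49 genes in all, 41 of them tested. NEUROD4 and NEUROG2 passed the filter through the 2 SOX21-/- libraries of day 8 alone, so they had to differ there and are left out of the counts that follow. Of the other 39, limma called 0 by genotype at day 0 and 0 at day 4, where 0.384% and 0.775% of all tested genes were called. At an unadjusted p under 0.05 there were 3 at day 0 and 9 at day 4, where 5.88% and 16.9% of all tested genes lay. At day 8 limma called 3 higher and 0 lower, where 1.47% and 1.32% of all tested genes were called, and 16 had an unadjusted p under 0.05, beside 16.3% of all tested genes. The day 8 median of the 39 was 0.14 on the log2 scale, beside 0 for all tested genes. Of the 4 tested ligands, JAG1 was higher in SOX21-/- (0.88, SE 0.18, adjusted p = 0.0397), and the list's median was 0.73. Of the 4 receptors 0 were called (median 0.14). Of the 13 modulators and nuclear partners, NRARP, a feedback inhibitor that NOTCH switches on, was higher (0.70, SE 0.15, adjusted p = 0.0475; list median 0.14, and −0.11 without the day 8 library WT2). The 8 gamma-secretase and ADAM protease genes, the 4 Groucho corepressors and the 2 tested relatives BHLHE40 and BHLHE41 had 0 calls, with medians of 0.10, 0.01 and 0.06. The JAG1 call was lost in 8 of the 12 fits that left out 1 library (S13 or S23 of day 0, WT1 or WT2 of day 4, and each of the 4 of day 8), and the NRARP call in all 12.

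Among the proteins that meet HES factors at the DNA or in dimers, ID4, a helix-loop-helix protein without a DNA-binding part, had 150.3 and 162 TPM in SOX21-/- and 67.4 and 53.9 TPM in wild type at day 8, and was higher in SOX21-/- (1.36, SE 0.16, limma adjusted p = 0.00529). It was the 1 call among the 4 ID genes. Their median of 0.90 rested on S13: it was −0.66 without that library and 1.72 without S23. ID1 had 57.2 TPM in S13 and 5.11 TPM in S23, against 8.30 and 6.73 TPM in wild type, and ID3 72.8 TPM in S13 and 8.34 TPM in S23, against 16.7 and 15.1 TPM in wild type. ID2 had 112 and 40.5 TPM in SOX21-/-, below the 145 and 171 TPM in wild type. Of the 8 proneural bHLH activators, which HES proteins repress in the classical scheme, 2 were tested, NEUROD4 and NEUROG2, each through the SOX21-/- libraries of day 8 alone, so that their differences are given as values and support nothing. NEUROD4 had 6.74 and 3.19 TPM in SOX21-/- and 0.220 and 0 TPM in wild type at day 8 (a difference of 2.37, SE 0.29, adjusted p = 0.00554; 4.73 with a pseudocount of 0.1). NEUROG2 had 4.65 and 1.44 TPM in SOX21-/- and 0.369 and 0 TPM in wild type (1.67, SE 0.39, adjusted p = 0.0654). The ID4 call was lost without the day 8 library WT2 (adjusted p = 0.05003) and with the day 8 libraries alone (0.0703).

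**Figure D5:**
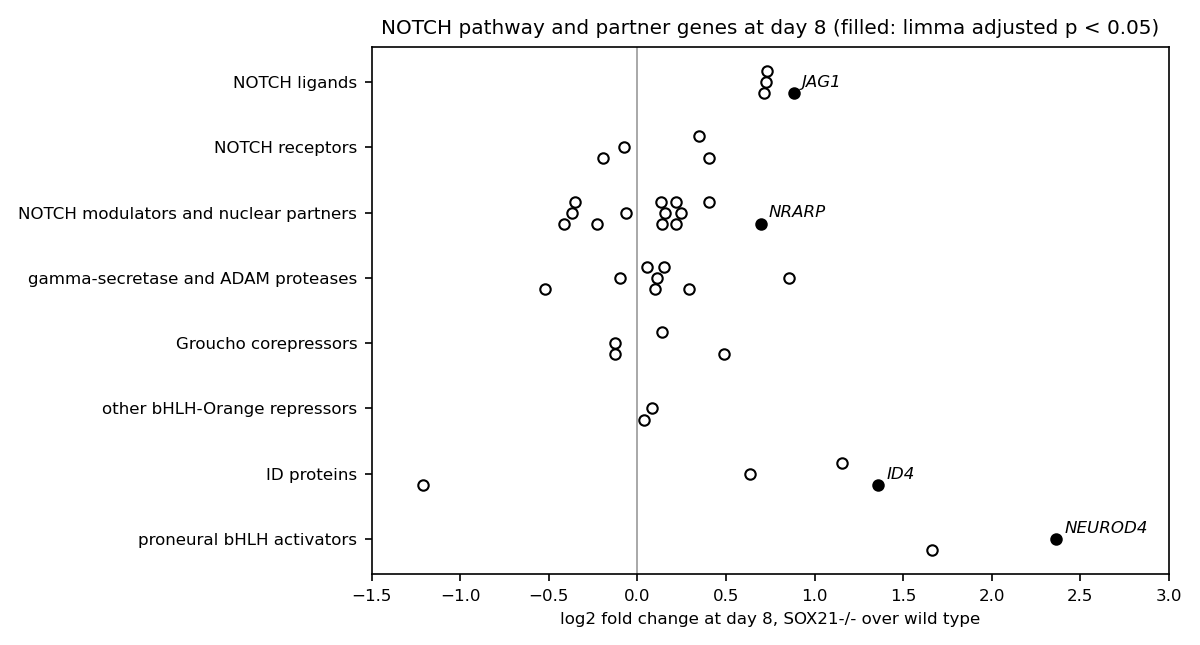
Genotype difference at day 8, as log2 fold change of SOX21-/- over wild type (x axis), of the 41 tested genes in 8 lists around the HES and HEY factors (y axis), with 1 point per gene and filled points where the limma adjusted p was under 0.05. The 4 filled points are JAG1 (0.88), NRARP (0.70), ID4 (1.36) and NEUROD4 (2.37), the last of which passed the filter on low values through the SOX21-/- libraries of day 8 alone.

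Markers of cell types moved beside these differences. At day 8 the 6 neural progenitor markers summed to 1676 to 1801 TPM in SOX21-/- and 1307 to 1352 TPM in wild type. MSI1 was higher in SOX21-/- (1.07, limma adjusted p = 0.0101), as the 1 called gene of that list. The others were not called, with differences of 1.42 for SOX1, 0.84 for PAX6, 0.59 for FABP7, 0.20 for NES and 0.02 for SOX2. HES5, also a progenitor marker, was left out of the sum as a member of the family, and its difference was −0.38. The MSI1 call was lost without WT2 or S23 of day 8 and with the day 8 libraries alone (adjusted p = 0.0565). The 6 young neuron markers (DCX, TUBB3, ELAVL3, ELAVL4, STMN2 and INA) summed to 107 to 142 TPM in SOX21-/- and 202 to 216 TPM in wild type at day 4. At day 8 they summed to 137 to 189 TPM in SOX21-/- and 262 to 277 TPM in wild type. DCX was lower in SOX21-/- at day 8 (−2.49, adjusted p = 0.00554), a call lost without WT2 of day 8 and with the day 8 libraries alone (adjusted p = 0.108). Most of the day 8 sum was TUBB3, at 119 and 92.4 TPM in SOX21-/- and 174 and 180.1 TPM in wild type (−0.75, adjusted p = 0.0833). ELAVL3 of the same list had a positive difference that was not called, at 5.92 TPM in SOX21-/- and 1.45 TPM in wild type on average (1.32, adjusted p = 0.208). ELAVL4 averaged 2.498 TPM in SOX21-/- and 0.543 TPM in wild type (1.19, adjusted p = 0.0551). It passed the filter on low values through the SOX21-/- libraries of day 8 alone, so its difference supports nothing. The part of cell makeup in the HES3 and HES4 differences was not tested. The midbrain-hindbrain boundary is where Hes3 is best known in the mouse. Its 8 markers (EN1, EN2, PAX2, PAX5, PAX8, FGF8, FGF17 and WNT1) summed to 18.2 to 27.9 TPM in SOX21-/- and 54.0 to 63.6 TPM in wild type at day 8, and EN1 and EN2 were under 1 TPM in both groups. Most of that sum was FGF8, at 20.6 and 16.4 TPM in SOX21-/- and 52.1 and 61.3 TPM in wild type (−1.57, adjusted p = 0.152). Of the 3 tested markers of that list 0 were called, with a median of 0.10, and PAX2 (0.50) and PAX8 (0.10) had positive differences. Under 1 TPM in each library were CDH5 and ERG of the 5 endothelial markers, SOX17, FOXA2 and CER1 of the 4 endodermal markers, and SOX10 and TFAP2B of the 5 neural crest markers. At day 8, 3 endothelial, 1 endodermal and 2 neural crest markers reached 1 TPM in a library of each genotype. The day 8 endothelial sums were 6.09 to 7.88 TPM in SOX21-/- and 13.2 to 14.5 TPM in wild type. Those of endoderm were 90.8 to 110 TPM in SOX21-/- and 29.2 to 30.4 TPM in wild type. Those of neural crest were 157 to 244 TPM in SOX21-/- and 185 to 194 TPM in wild type.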

How the data were processed

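Poly(A) RNA of H9 cells was sequenced in 12 libraries, 2 each of SOX21-/- and wild type at days 0, 4 and 8. The deposited TPM values per gene were made by the authors; the submitters' processing notes name CASAVA 1.7, Salmon 0.8.2 and hg38. Annotation release, strand use and the sequencer of each library are not given in the sources used. The table held 0 columns of other series, and depth is unknown.

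Libraries were grouped by their labels. limma 3.58.1 (R 4.3.3) was fitted to log2(TPM + 1) of the 24248 genes that reached 1 TPM in 2 or more libraries, with a mean per group, all 12 libraries and moderated variances with a trend (6 residual and 2.29 prior degrees of freedom). Tests were two-sided, with Benjamini-Hochberg adjustment at 0.05 within each of 9 comparisons; every adjusted p is from limma. The fit was tested on simulated data. Named were the 10 members, the 5 genes most like HES3 and HES5 by Pearson r, their nearest protein-coding neighbours, SOX21, and list or marker genes that passed or define a list; NEUROG2, ID1, ID2, ID3, TUBB3, ELAVL3, ELAVL4, FGF8, PAX2 and PAX8 were added once their values were known. The members and lists were chosen with earlier results of these data known.

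Alternatives were a pseudocount of 0.1, no filter, quantile normalization, scaling by the median of ratios, nuclear protein-coding genes alone, a replicate block, the line label as a random effect, fewer days in the fit, and each library left out. Positions were taken from GENCODE v29 (GRCh38), which held 57881 of the 58219 identifiers, and promoters from RefSeq on GRCh38.p14.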

Additional observations from a re-analysis of the deposited data

Results flagged for a closer look

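The genotype difference of HES3, SOX21-/- minus wild type, changed between day 4 and day 8 by 4.24 on the log2(TPM + 1) scale (SE 0.40, limma adjusted p = 0.00638), with both SOX21-/- libraries above both wild-type libraries on each of these days. That change was called in each of the 20 alternatives run for it (3.79 to 4.996). The same test was passed by ID4 among the genes around the family, with a change of 2.16 (adjusted p = 0.00911), a call kept in each of the 20 alternatives run. Among the cell type markers MSI1 passed it too, with a change of 1.33 (adjusted p = 0.0351). The MSI1 call was lost under median-of-ratios scaling (adjusted p = 0.0565) and with a replicate block (adjusted p = 0.0676), among other alternatives. NEUROD4 had a change of 2.38 (adjusted p = 0.0430), a call lost in 15 of 18 alternatives, among them a pseudocount of 0.1 (4.89, adjusted p = 0.0799) and each of the 10 fits without 1 library. It passed the filter on low values through the SOX21-/- libraries of day 8 alone and was listed at 0 in both SOX21-/- libraries of day 4, so this value supports nothing.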

How the results depend on the processing

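The count of called members at day 8 for SOX21-/- against wild type (2) was 1 with a pseudocount of 0.1, with median-of-ratios scaling and with the day 8 libraries alone, HES4 being the one lost, and 1 to 3 without 1 library. From day 4 to day 8 in wild type (5) it was 3 to 5 without 1 library. The other 7 counts of members stayed within 1.5 times of their value under the alternatives run. Directions turned for HES6 in wild type from day 0 to day 4 (0.12), which was −1.25 with median-of-ratios scaling, −0.79 with quantile normalization, −0.49 on nuclear protein-coding genes alone and −0.0133 to 0.256 without 1 library. HEY1 on that step (0.58) was −0.0036 and −0.12 under those 2 scalings. HES6 at day 8 (0.07) was −0.21 to 0.36 without 1 library. The cause was not tested. Of the results per member, 969 kept direction and side of the threshold, 18 lost a call, 16 gained one and 8 turned. Over all genes, the calls for SOX21-/- against wild type numbered 93 at day 0 (59 to 114 without 1 library; 8 on nuclear protein-coding genes alone, 159 with no filter), 188 at day 4 (14 to 191 without 1 library, the fewest without WT1 of day 4; by limma 0 with the day 4 libraries alone or those of days 4 and 8) and 676 at day 8 (170 to 774, the fewest without WT2 of day 8; 34 with the day 8 libraries alone). For the change of the genotype difference they numbered 99 from day 0 to day 4 (26 to 163 over the alternatives) and 270 from day 4 to day 8 (45 to 341), and from day 4 to day 8 in wild type 3058 (1038 without WT2 of day 4).

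Replicate numbers appear in the labels of wild type, and were given in accession order for SOX21-/-. Across genotypes same-numbered libraries share only a number, while across days within a genotype they share a line label (S13, S23, WT1 or WT2). The deviations of same-numbered libraries correlated at −0.02 to 0.08. Treating that label as random left the counts of called members as before in the 9 comparisons, and 672 genes in all were called by genotype at day 8. With the number as a replicate block these counts were again as before (2 at day 8), while the genes called in all were 59, 75 and 535 at days 0, 4 and 8; the adjusted p of JAG1 was then 0.0577 and of NRARP 0.0665. Depth is unknown, so no counting error can be given, which matters most for HES2, HES7, HEY1 and HEY2.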

Other observations

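HES3, HES4, HES5, HES2 and HEYL lie on chromosome 1, with HES3 at 6244192 to 6245578 and HES2 at 6412418 to 6424670 the closest pair. HES2 stayed under 0.5 TPM while HES3 was at 44.4 and 73.6 TPM in SOX21-/- and 1.22 and 1.09 TPM in wild type at day 8. Of the markers of other cell types, 2 more were called at day 8: CXCR4, listed with endoderm and also made by neural progenitors, was higher in SOX21-/- (1.74, limma adjusted p = 0.00949, lost in 4 of 21 alternatives), and TEK of the endothelial list was lower (−1.03, adjusted p = 0.0285, lost in 7 of 21).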
